A study of Mus musculus with 2 samples.

Results

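The set described here holds 10 of the 18194 genes that the arrays name. They are the ATP-driven exporters of drugs, conjugates and sterols that the intestinal epithelium is known for, together with Npc1l1, the carrier that brings cholesterol in. The members are Abcb1a, Abcb1b, Abcg2, Abcc2, Abcc1, Abcc3, Abcc4, Abcg5, Abcg8 and Npc1l1. All probe sets annotated to exactly 1 gene symbol were searched for these names, which gave 13 of 34958 such probe sets. None of the members was missing, and 0 probe sets listed a member together with another gene.

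The study compared the upper stretch of the gut in CD36KO mice, which carry a germline deletion of Cd36, with that of WT mice. CD36 is a scavenger receptor that binds thrombospondin and oxidized lipoproteins and helps cells take up fatty acids. Both groups were C57BL/6 mice on chow, and the sources used here do not give their age. RNA of 3 animals was pooled for each genotype and hybridized to 1 Affymetrix array, so each group is a single value and no difference below can be set against a spread between animals. The deletion was present in every cell of the body and from the start of life, and the tissue was a whole piece of gut with its muscle, vessels and immune cells. In such tissue, fewer cells of a type and less RNA per cell cannot be told apart.

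ATP-binding cassette (ABC) transporters use the energy of ATP hydrolysis to move substrates across membranes. In enterocytes, the absorptive cells of the villus, P-glycoprotein (Abcb1a), BCRP (Abcg2) and MRP2 (Abcc2) sit in the apical brush border and return drugs and conjugates to the lumen, while MRP1 (Abcc1) and MRP3 (Abcc3) sit in the basolateral membrane and pass conjugates towards the blood. Cholesterol and plant sterols enter through NPC1L1 at the brush border, and the obligate heterodimer of ABCG5 and ABCG8 pumps sterols back out. Drug exporters are known targets of the nuclear receptors PXR and CAR, and Abcg5 and Abcg8 of the oxysterol receptor LXR.

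The promoters of the sterol pair, of the member that differed most between the pools (Abcc2) and of the uptake carrier are shown as examples. They were picked for holding the recognition letters of regulators whose transcripts are described further on, as windows of other members also do. RefSeq windows on GRCm38.p6, from 250 bases before to 50 bases after a gene's start, were at hand for 8 of the 10 members, not for Abcc1 and Abcc3. A search for 3 words was run on both strands, and none of their matches in the windows shown overlaps another. GATAA is the core bound by GATA factors, such as the proximal intestinal regulator GATA4, and 25.4% of the 32851 windows of all genes hold it. AGGTCA and AGTTCA are half-sites of nuclear receptors, present in 16.3% and 14.0% of all windows. Capitals mark these words or their reverse complements, and a match is a run of letters and not evidence of binding. Among members not shown, Abcg2, which was level between the pools, holds AGGTCA and GATAA, Abcc4 holds GATAA and Abcb1a holds AGTTCA. The Abcb1b window holds none of the words, nor does a further Abcg8 window around another start. The words are thus not particular to the members shown.
Abcc2 promoter, chr19:43782058-43782357, plus strand: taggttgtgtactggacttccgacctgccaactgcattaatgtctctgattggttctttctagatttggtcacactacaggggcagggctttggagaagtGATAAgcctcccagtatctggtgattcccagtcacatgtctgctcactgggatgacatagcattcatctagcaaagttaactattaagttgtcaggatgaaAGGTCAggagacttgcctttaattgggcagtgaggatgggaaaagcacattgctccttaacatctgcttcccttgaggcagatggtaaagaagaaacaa
Abcg8 promoter, chr17:84682871-84683170, plus strand: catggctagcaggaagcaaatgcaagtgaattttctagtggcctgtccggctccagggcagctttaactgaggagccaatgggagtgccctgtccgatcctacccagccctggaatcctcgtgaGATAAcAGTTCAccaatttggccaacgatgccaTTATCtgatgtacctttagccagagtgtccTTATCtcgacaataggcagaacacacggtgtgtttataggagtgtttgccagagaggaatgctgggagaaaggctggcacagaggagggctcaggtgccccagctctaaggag
Npc1l1 promoter, chr11:6230196-6230495, minus strand: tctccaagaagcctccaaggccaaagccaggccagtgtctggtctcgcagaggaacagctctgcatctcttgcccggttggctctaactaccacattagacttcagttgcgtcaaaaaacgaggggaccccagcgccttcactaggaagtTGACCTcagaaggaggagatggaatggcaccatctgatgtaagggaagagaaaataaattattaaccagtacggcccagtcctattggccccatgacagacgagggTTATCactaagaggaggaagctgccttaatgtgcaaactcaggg
In the Abcc2 window GATAA began 150 bases and AGGTCA 49 bases before the start. The Abcg8 window also carries the start of Abcg5, which is read from the minus strand. Those starts lie 110 bases apart, head to head, and the pair shares GATAA words that begin 126, 93 and 63 bases before the Abcg8 start and an AGTTCA that begins 120 bases before it. In the Npc1l1 window AGGTCA stands on the opposite strand 100 bases before the start, and GATAA on the opposite strand 6 bases after it.

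Cd36 was read first, as a check of the labels. Its 3 probe sets read 6.02, 5.87 and 3.52 in the CD36KO pool, against 7.68, 7.70 and 4.74 in the WT pool, on the log2 scale of the deposited table. All were lower in the CD36KO pool, by 3.17-fold, 3.56-fold and 2.33-fold. Where these probe sets lie with respect to the deletion is not known from the sources used here, so they check the labels only if they fall inside it. For counts, probe sets were kept if the higher of their values reached 4.51, the median of all such higher values. This left 10 member probe sets of 9 genes, all of them above 4.51 in both pools. A probe set counted as higher or lower from 1.5-fold, which is 0.58 on the log2 scale.

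Of the 10 member probe sets, 2 were lower in the CD36KO pool by at least 1.5-fold and 0 were higher by that much. Over all 19482 probe sets above the same level, 3.46% were lower by that much and 6.86% higher. Taken 1 probe set per gene, 2 of 9 members (22.2%) were lower, Abcc2 and Abcc3, and 0 were higher, beside 3.31% lower and 5.31% higher of the 11981 genes kept. Leaving Abcc2 out, 1 of 8 was lower. The median difference of the 9 members was -0.24, and -0.10 without Abcc2, where that of all genes was -0.0059 with its middle 95% between -0.65 and 0.80. Of the members, 7 lay within 1.5-fold, as did 91.4% of all genes.

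**Figure D1:**
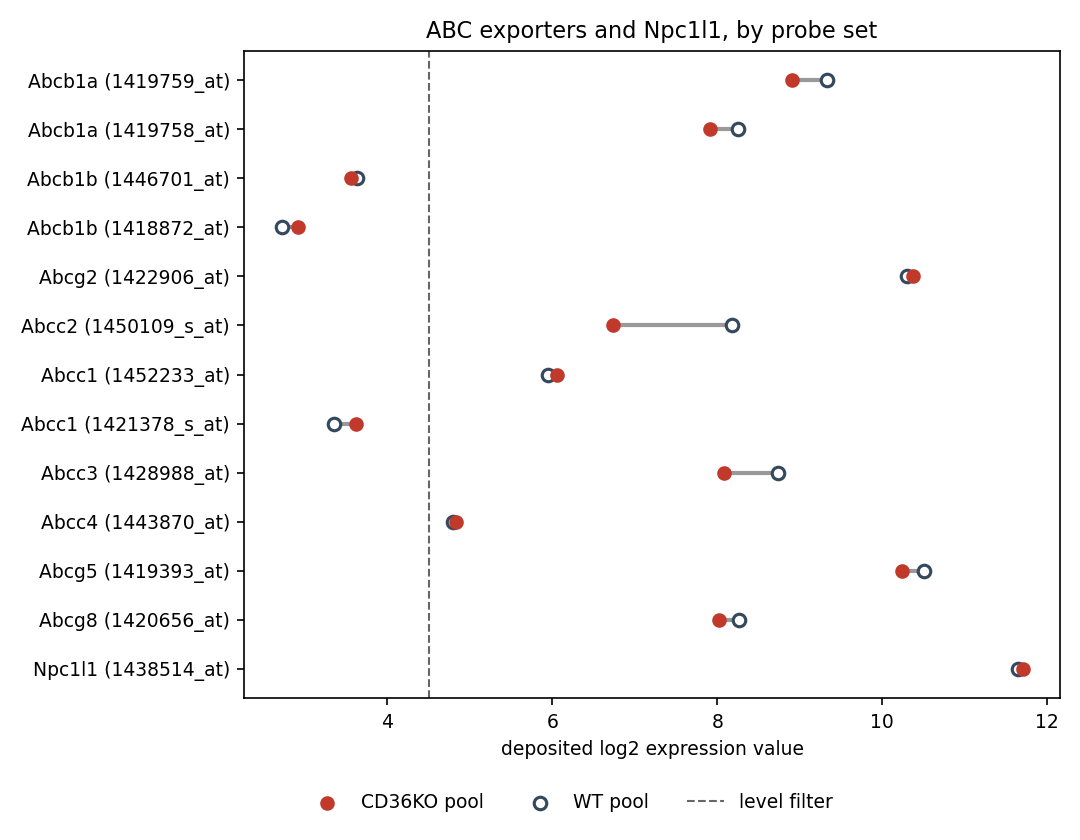
Deposited log2 expression value (x axis) of the 13 probe sets of the 10 genes (y axis), as filled points for the CD36KO pool and open points for the WT pool, 1 array each, with the level filter of 4.51 as a dashed line. The widest gap is that of Abcc2, at 6.74 in CD36KO and 8.18 in WT, and both Abcb1b probe sets lie left of the filter.

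Among the apical drug exporters, Abcb1a was lower in the CD36KO pool at both of its probe sets, by less than 1.5-fold, and Abcg2 was level. Abcb1a and Abcb1b are the mouse genes for P-glycoprotein, the efflux pump of lipophilic drugs and toxins, which humans make from the single gene ABCB1. The Abcb1a probe set with the higher signal read 8.91 in the CD36KO pool and 9.33 in the WT pool, a difference of -0.42 (1.34-fold lower). The other read 7.92 in CD36KO and 8.25 in WT, a difference of -0.33 (1.26-fold lower). The direction was therefore shared by both, and 8.01% and 13.0% of all probe sets above the filter had differences as low or lower. The coding sequences of Abcb1a and Abcb1b are close enough that their probe sets may share signal.

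Abcb1b, the P-glycoprotein gene known from the adrenal, placenta and pregnant uterus, was below the filter. Its probe sets read 3.56 and 2.92 in the CD36KO pool, against 3.63 and 2.72 in the WT pool. One was slightly lower and one slightly higher, and with no detection calls in the table such values cannot be told from no signal. Abcb1a, Abcb1b and their neighbour Abcb4, the phospholipid flippase of bile, lie on chromosome 5 as Cd36 does, with 33, 32 and 31 protein-coding genes between each and Cd36. Of the genes from Abcb1a to Cd36, 9 were above the filter, with a median difference of -0.18, 0 at least 1.5-fold lower and 1 at least 1.5-fold higher. Whether DNA carried along with the deletion bears on Abcb1a was not tested.

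Abcg2 encodes BCRP, a pump for sulphated conjugates, urate, porphyrins and many drugs. It read 10.38 in the CD36KO pool and 10.31 in the WT pool, a difference of 0.07 (1.05-fold). These values are nearly equal, and 19.8% of probe sets above the filter differed by less.

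Abcc2 differed more than any other member. It encodes MRP2, the apical pump for glutathione, glucuronide and sulphate conjugates, whose loss in liver causes the conjugated hyperbilirubinaemia of Dubin-Johnson syndrome in humans. Its probe set read 6.74 in the CD36KO pool and 8.18 in the WT pool, a difference of -1.44 (2.72-fold lower), or 106.5 against 289.5 on the linear scale. Only 0.144% of all probe sets above the filter were as low or lower, and 99.1% had a smaller absolute difference. This is a single probe set of the _s_at type, a suffix that Affymetrix gives where probes match several transcripts, and no second Abcc2 probe set was there to set beside it. In rodents Abcc2 is known to be most abundant in the proximal small intestine and to decline towards the ileum.

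Of the other members of the ABCC family, Abcc3 was lower in the CD36KO pool and Abcc1 and Abcc4 were level. Abcc3, which encodes MRP3, the basolateral exporter of glucuronides and bile salts, read 8.09 in CD36KO and 8.74 in WT, a difference of -0.65 (1.57-fold lower). That lies just past the 1.5-fold mark, and 2.54% of probe sets above the filter were as low or lower. The difference of Abcc2 was lower than that of Abcc3 by 0.79 on the log2 scale. Along the gut of rodents Abcc3 is known to increase towards the ileum and colon.

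Abcc1, which encodes MRP1, a basolateral exporter of glutathione conjugates and leukotriene C4, read 6.05 in the CD36KO pool and 5.95 in the WT pool, a difference of 0.10 (1.07-fold). A further Abcc1 probe set read 3.63 in CD36KO and 3.36 in WT, under the filter. Both were slightly higher in the CD36KO pool, neither by 1.5-fold. Abcc4, which encodes MRP4, an exporter of cyclic nucleotides, prostaglandins and conjugates, read 4.84 in CD36KO and 4.80 in WT, a difference of 0.04 at a level just above the filter.

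The sterol pair differed alike, with small differences below 0. Abcg5 read 10.24 in the CD36KO pool and 10.50 in the WT pool, a difference of -0.26 (1.20-fold lower). Abcg8 read 8.02 in CD36KO and 8.26 in WT, a difference of -0.24 (1.18-fold lower). The differences of these head-to-head genes were 0.03 apart, and neither was large. Of probe sets above the filter, 17.9% and 20.0% had differences as low or lower. Npc1l1, the target of the cholesterol absorption inhibitor ezetimibe, read 11.70 in CD36KO and 11.64 in WT, a difference of 0.06 (1.04-fold). The cholesterol entry gene was thus level where its export pair was marginally lower, and its difference lay 0.32 above that of Abcg5 and 0.30 above that of Abcg8.

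The small differences depend on how the arrays are scaled. When the median of the hybridization control probe sets was brought to 0, Abcg5 stood at 0.02 and Abcg8 at 0.04. When the median of the epithelial markers was brought to 0 instead, Abcg2 stood at -0.19, Npc1l1 at -0.20, Abcc1 at -0.16 and Abcc4 at -0.22. Abcc2, Abcc3 and Abcb1a kept a lower value in the CD36KO pool under all of the scalings run, between -1.71 and -1.16 for Abcc2, between -0.92 and -0.37 for Abcc3 and between -0.69 and -0.14 for Abcb1a.

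**Figure D2:**
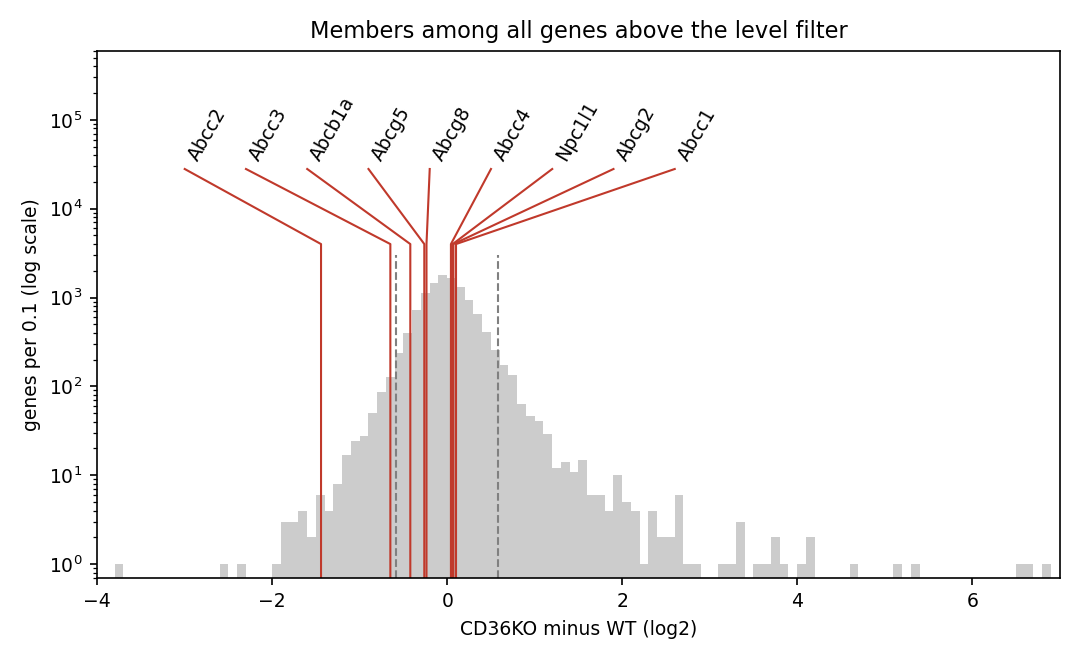
Number of genes per 0.1 of CD36KO minus WT difference (log2, x axis) on a log scale (y axis), in grey for the 11981 genes above the filter, with red lines at the 9 members and dashed lines at 1.5-fold. Abcc2 at -1.44 lies in the lower tail, Abcc3 at -0.65 just past the dashed line, and the other members within the main body.

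The remaining ABC transporters give the family's background. Of 39 further ABC genes on the arrays 28 were above the filter, and 0 were at least 1.5-fold lower or higher at their brightest probe set. Their median difference was -0.02, and 91.4% of all genes lay within 1.5-fold too. Abcb10, a mitochondrial haem-synthesis transporter, read 6.95 in CD36KO and 7.46 in WT (-0.51), and Abcb8, another mitochondrial member, read 6.94 in CD36KO and 6.44 in WT (0.50). Abca1, the basolateral pump that loads cholesterol onto HDL, read 7.70 in CD36KO and 8.10 in WT (-0.40), with other probe sets between -0.16 and 0.03. Abcd3, a peroxisomal importer of fatty acyl groups, read 10.99 in CD36KO and 11.35 in WT (-0.36). Away from the brightest probe set, Abcc9 reached 0.75 and Abce1 -0.81 (chosen after their values were seen). No further ABC gene came near the difference of Abcc2 in either direction at its brightest probe set.

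Many enzymes that make the conjugates exported by the ABCC proteins and BCRP were lower in the CD36KO pool. Of 30 conjugating enzymes above the filter 13 were lower and 1 was higher by at least 1.5-fold, and their median difference was -0.44. Gsta2, a glutathione transferase, read 4.55 in CD36KO, just above the filter, and 7.07 in WT (5.74-fold lower). Gsta3, also counted as lower, was under the filter in CD36KO (3.80) and read 0.17 at another probe set. Ugt2b5, a glucuronosyltransferase, read 7.67 in CD36KO and 9.09 in WT (2.67-fold lower). The transferases Gstm3 (11.58 in CD36KO, 12.63 in WT) and Gstm6 (7.27 in CD36KO, 8.28 in WT) were 2.07-fold and 2.02-fold lower. Glutathione transferases of a class are near-identical in places, so their probe sets may share signal and these counts are not of independent genes.

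Targets of PXR outside the exporters were all below 0. Some of them are counted in other lists too, Gstm1 with the conjugating enzymes and NRF2 targets and Cyp2b10 with the proximal markers. Of 8 above the filter 6 were lower and 0 higher by at least 1.5-fold, and the median difference was -0.88. Cyp2b10, a cytochrome P450 induced through CAR and PXR, read 11.50 in CD36KO and 12.49 in WT (1.99-fold lower, and lower at its other probe sets). Aldh1a7 (8.72 in CD36KO, 9.79 in WT) and the carboxylesterase Ces2a (10.40 in CD36KO, 11.39 in WT) were lower by 1.07 and 0.99 on the log2 scale, where Gstm1 was lower by 0.95. The exporters known as targets of these receptors spanned a wider range, from -1.44 for Abcc2 to 0.07 for Abcg2.

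The receptors themselves differed in both directions. Of 14 regulators that sense xenobiotics and bile acids, 2 were lower and 1 was higher by at least 1.5-fold, the median being -0.26. Nr1i3, which encodes CAR, read 7.03 in CD36KO and 7.92 in WT (1.86-fold lower). Nr1i2, which encodes PXR and was chosen after its value was seen, read 6.14 in CD36KO and 6.26 in WT. Nr0b2, the bile acid induced repressor SHP, read 6.26 in CD36KO and 7.06 in WT (1.74-fold lower), while Nr1h4, the bile acid receptor FXR, read 7.83 in CD36KO and 7.04 in WT (1.73-fold higher). CAR was thus lower at the transcript level and PXR close to level.

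Other inducible programmes that take in ABC exporters were mixed. Of 4 aryl hydrocarbon receptor targets above the filter 2 were lower and 1 was higher by at least 1.5-fold (median -0.43), and Cyp1a1, the P450 that marks this receptor's activity, read 5.63 in CD36KO and 9.33 in WT (13.0-fold lower). Nqo1, a quinone reductase that both this receptor and NRF2 induce, was lower by 0.61, and Cyp1b1 was higher by 0.74 (log2), with other probe sets from -0.16 to 0.38. Of 10 targets of NRF2, the regulator of the antioxidant response, 3 were lower and 1 was higher by as much (median -0.07). Gsta3 was lower by 0.95, with 3.80 in CD36KO under the filter and 0.17 at another probe set. Gsr, glutathione reductase, was higher by 0.77, and by 2.11 at another probe set.

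Genes of sterol handling did not share a direction. Of 20 genes of sterol uptake, ester hydrolysis and intracellular transport (the esterifying enzymes Soat1 and Soat2 were not analysed here) 2 were lower and 1 was higher by at least 1.5-fold, the median being -0.13. Apob, the structural protein of the chylomicron, read 9.20 in CD36KO and 10.63 in WT (2.71-fold lower, -0.45 at another probe set), and Lipa, the lysosomal lipase that frees cholesterol from its esters, read 8.24 in CD36KO and 9.15 in WT (1.87-fold lower). Npc1, which moves cholesterol out of lysosomes, read 5.22 in CD36KO and 4.16 in WT (2.09-fold higher, with the WT value under the filter). Scarb1, the HDL receptor, read 6.60 in CD36KO and 7.14 in WT (1.45-fold lower), and its other probe sets read differences from -0.84 to -0.72. The genes named here are those of the list with the largest absolute differences. Of the 20 genes 17 lay within 1.5-fold, as did Npc1l1, Abcg5 and Abcg8 and 91.4% of all genes.

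Genes of LXR, which drives Abcg5 and Abcg8 in mice, had a median of 0.21 over 9 members, with 0 at least 1.5-fold lower and 1 higher. That was Mylip, the ubiquitin ligase that degrades the LDL receptor, at 6.71 in CD36KO and 5.86 in WT, higher by 0.85. Scd1, a fatty acid desaturase, and Smpdl3a, a phosphodiesterase, stood at 0.31 and 0.29 (log2; 0.02 at another Scd1 probe set), and Abca1 was lower, as given above. Nr1h3, which encodes LXR alpha and was chosen after its value was seen, read 6.39 in CD36KO and 6.41 in WT. Of the 9 genes 6 were above 0 and 3 below, namely Abca1, Nr1h3 and Srebf1 (-0.25, chosen after its value was seen). Abcg5 and Abcg8 stood on the side of these 3, with deposited differences just below 0 whose sign depends on the scaling.

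Part of the cholesterol synthesis genes driven by SREBP2 were higher in the CD36KO pool. Of 19 that passed the filter 6 were higher and 0 lower by at least 1.5-fold, 18 had a difference above 0, and the median was 0.46. Sqle, squalene epoxidase, read 9.29 in CD36KO and 7.31 in WT (3.95-fold higher), and Nsdhl, a later enzyme of the pathway, was higher by 0.81. Fdps and Msmo1 were higher by 1.15 and 1.03, but their other probe sets read -0.06 and -0.21. Of the 14 genes of this list with several probe sets, 10 had another one below 0, and the median was 0.20 where each gene was read at its least different probe set. NPC1L1 is reported as an SREBP2 target in human cells, and mouse Npc1l1 stood at 0.06 beside these medians.

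Solute carriers for the same classes of substrate differed in both directions. Of 20 carriers of drugs, conjugates and bile acids 4 were lower and 3 were higher by at least 1.5-fold, the median being -0.04. The higher ones were the ileal bile acid carriers, namely the apical Slc10a2 (4.58 in CD36KO, just above the filter, and 2.50 in WT, under it) and the basolateral heterodimer of Slc51a (10.74 in CD36KO, 9.66 in WT) and Slc51b (10.37 in CD36KO, 9.28 in WT). These bile acid carriers are also counted among the distal markers below. Slc19a3, a thiamine carrier, read 6.24 in CD36KO and 7.40 in WT (2.24-fold lower, 0.17 at another probe set). Of 8 genes for proteins that hold exporters at the brush border, 0 were past 1.5-fold in either direction at the brightest probe set. Their median was 0.12, and 91.4% of all genes lay within 1.5-fold too. Among them, Rdx, the radixin that anchors MRP2 in the bile canaliculus of mice, differed by 0.50, but by 0.02 and 0.04 at its other probe sets. Ezr, the ezrin of the intestinal brush border, stood at 0.28 and the scaffold Pdzk1 at -0.22. The scaffold Slc9a3r2 stood at 0.17, with other probe sets from -0.14 to 0.62.

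**Figure D3:**
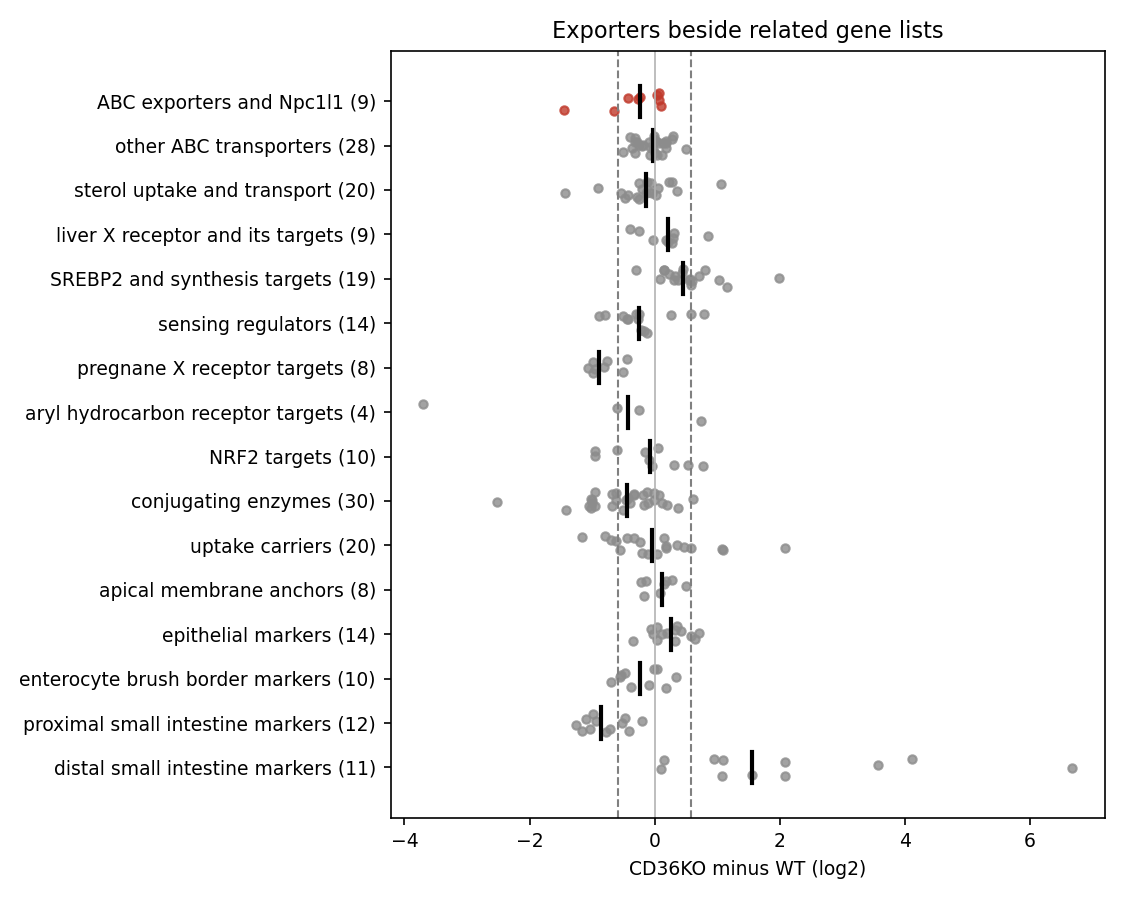
CD36KO minus WT difference (log2, x axis) of each gene above the filter in the members (red) and in related lists (grey, y axis, number of genes in brackets), with black bars at medians and dashed lines at 1.5-fold. The members' median of -0.24 lies between that of other ABC transporters, -0.02, and those of conjugating enzymes, -0.44, and pregnane X receptor targets, -0.88. It lies next to those of enterocyte brush border markers, -0.23, and sensing regulators, -0.26, and is -0.10 without Abcc2.

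Markers of position along the gut differed between the pools beside these results. All 12 proximal small intestine markers were below 0, 8 of them by at least 1.5-fold, with a median of -0.86 and a summed linear signal of 37172.3 in CD36KO against 52338.1 in WT. The highest absolute differences were those of Pdx1 (-1.26, -0.00042 at another probe set), Trpv6 (-1.16), Slc40a1 (-1.10, -0.53 at another probe set) and Onecut2 (-1.03). The other Onecut2 probe sets read from -1.66 to -1.10. Gata4, chosen after its value was seen, read 7.54 in CD36KO and 8.06 in WT (-0.52, 0.16 at another probe set). All 11 distal markers were above 0, 9 of them by at least 1.5-fold, with a median of 1.55 and a summed signal of 19132.9 in CD36KO against 5274.13 in WT. Fabp6, the ileal bile acid binding protein, read 12.92 in CD36KO and 6.25 in WT, and Fgf15, the ileal hormone of bile acid feedback, read 7.58 in CD36KO and 3.47 in WT, under the filter. The part that the position of the sampled gut has in the differences of Abcc2, Abcc3 and the sterol pair was not tested.

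The epithelium that carries the exporters was present in both pools. All 14 epithelial markers were above the filter, 3 of them at least 1.5-fold higher and 0 lower, with a median of 0.27 and a summed signal of 56809.9 in CD36KO against 49486.6 in WT. Of 10 brush border markers 1 was lower by at least 1.5-fold, Slc2a2, a glucose carrier (-0.70), with a median of -0.23 and sums of 34525.1 in CD36KO and 39340.9 in WT. That median lay next to the differences of Abcg5 and Abcg8. At the brightest probe sets Abcc2 stood below every marker of both lists, whose lowest members were at -0.34 and -0.70. Klf5, 1 of the 3 epithelial markers counted as higher, stood at 0.58, right at the threshold, and its other probe sets read from -0.50 to 0.01. The 12 proximal markers given above had a median of -0.86, and their lowest at the brightest probe set was Pdx1 at -1.26 (-0.00042 at another). Onecut2 read -1.03 at its brightest probe set and down to -1.66 at another. Cells that also express Abcb1a, Abcg2, Abcc1 and Abcc4 gave medians of 0.41 for 8 endothelial, 0.29 for 7 leukocyte and 0.73 for 8 smooth muscle markers, with 2, 2 and 5 at least 1.5-fold higher and 0 lower. Both endothelial genes counted so, Emcn and Pecam1, and the leukocyte gene Cd68 were under the filter in WT and passed it through the CD36KO pool alone. All 9 pancreas acinar markers were higher (median 1.81), 2 of 3 liver markers were lower (median -0.65, 1 of them under the filter in CD36KO), and the 8 genes often used for scaling had a median of -0.00043. On the CD36KO array 18 of 18 hybridization controls (median -0.28) and 23 of 24 poly-A controls (median -0.57) were lower, and the 3' minus 5' difference of beta-actin was 1.34 in CD36KO and 2.28 in WT, that of GAPDH 0.71 in CD36KO and 1.28 in WT. Their part in the members' differences was not tested.

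**Figure D4:**
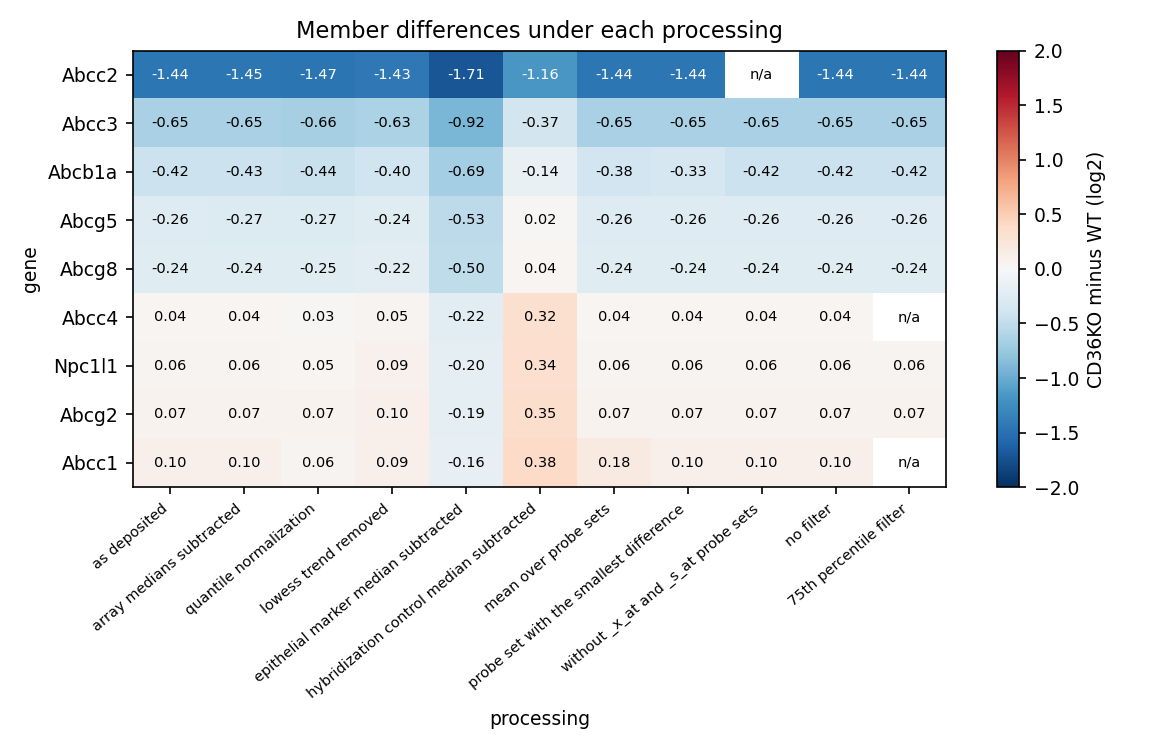
CD36KO minus WT difference (log2, colour and printed value) of the 9 members (y axis) as deposited and under the other ways of processing (x axis), with n/a where a probe set is left out by that choice. The Abcc2 row is blue throughout where it has a value, from -1.71 to -1.16, whereas the rows of Abcg5, Abcg8, Abcc4, Npc1l1, Abcg2 and Abcc1 change sign with the scaling.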

How the data were processed

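Total RNA of the proximal intestine was measured on 2 arrays, 1 per genotype. Per the labels' protocols, RNA of 3 animals was extracted with TRIzol and pooled, and biotinylated cRNA was made from it. The authors deposited 1 table of 45101 probe sets whose values are on a log2 scale, which follows from their range, up to 14.2. How they were summarized and normalized is not stated in the labels. Both array medians were 4.38, and the table holds neither detection calls nor background.

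Probe sets were named from the platform annotation: 34958 carried 1 symbol, 932 several and 9211 none here. RefSeq's gene table (GRCm38.p6) matched 34754 and changed 0 symbols. The CD36KO minus WT difference was taken with no further scaling. Counts cover probe sets whose higher value was at or above 4.51, and the probe set with the highest mean stood for a gene. A single array per genotype allows no test, so no p-value is given, and the number of arrays limits precision.

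The members and gene lists (other ABC transporters, sterol handling, LXR, SREBP2, sensing regulators, PXR, aryl hydrocarbon receptor and NRF2 targets, conjugating enzymes, carriers, anchors and cell markers) were chosen with earlier results of these data known. Some genes stand in several lists, so the counts of different lists are not all separate observations. Named are all members, Cd36, and up to 4 genes per list with the largest absolute differences. Alternatives were median centring, subtraction of a lowess trend (fraction 0.3), quantile normalization, the epithelial marker or hybridization control median as zero, the mean or the smallest difference over a gene's probe sets, no _x_at or _s_at probe sets, no filter, a 75th percentile filter and a 2-fold threshold. The counting was tested on simulated data. Python 3.11.15, pandas 2.3.3, NumPy 2.4.6, SciPy 1.17.1, statsmodels 0.14.6 and matplotlib 3.10.9 were used.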

Additional observations from a re-analysis of the deposited data

How the results depend on the processing

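Of the 87 single-member values under the alternatives, 85 stayed on the same side of 1.5-fold, and 6 changed sign, all within 1.5-fold. The exceptions were Abcc3 at -0.37 with the hybridization control median as zero and Abcb1a at -0.69 with the epithelial marker median as zero. Part of this stability was fixed in advance. The filters cannot change a gene's difference, and the choice among probe sets can change it only where a gene has several. Of the 9 members above the filter, only 2 have other probe sets. With the epithelial zero, 4 member probe sets and 3 member genes were at least 1.5-fold lower and the member median was -0.50. That scaling moved the median of all genes to -0.28, with 13.2% of genes lower and 2.16% higher, against 3.31% and 5.31% as deposited. Of all probe sets 13.9% were then lower. With the hybridization control zero, 1 member probe set and 1 gene (Abcc2) were lower, and the member median was 0.043. The median of all genes was then 0.28, with 1.00% of genes lower and 16.1% higher, and 0.99% of probe sets lower. Both of these scalings subtract a constant from all CD36KO values. The distance of the members from all genes was therefore fixed in advance, apart from small shifts of the filter. Without _x_at and _s_at probe sets 1 probe set and 1 gene (Abcc3) were lower, beside 3.32% of all probe sets and 3.11% of all genes. The member median was then -0.10, since Abcc2 has no value under that choice. At 2-fold 1 probe set and 1 gene (Abcc2) were lower, beside 0.65% of all probe sets and 0.63% of all genes. Without Abcc2, a choice made after its value was seen, 1 probe set and 1 gene were lower and the median was -0.10. The shares over all probe sets and all genes were then 3.46% and 3.31%. None of the alternatives gave a member at least 1.5-fold higher. Of 210 median values of the other lists, 196 stayed on the same side of 1.5-fold, 7 no longer passed it, 7 newly passed it, and 14 changed sign. With a single array per genotype no replicate could be left out. No paired analysis was possible because each genotype is 1 pooled array. Pooling hides the spread between animals, and values below the filter, such as those of Abcb1b, cannot be told from no signal.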
